A study of Mus musculus with 10 samples.

Results

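The chemokine genes described here are Ccl1, Ccl2, Ccl3, Ccl4, Ccl6, Ccl7, Ccl9, Cxcl2, Cxcl10 and Xcl1, which are 10 of the 22815 gene symbols in a table of read counts from mouse airway mast cells. They were chosen by symbol, with no threshold on a measured value, and each of the 10 had reads. The cells were mast cells sorted by flow cytometry from lower airways of wild type C57BL/6 mice aged 5 to 7 weeks, as a B7hi and a B7low population. Every mouse received 20 µL intranasally, either saline (PBS) alone or saline carrying 3 µg of house dust mite (HDM) extract, an allergen preparation, and HDM was given 2 times a week for 3 weeks. The 10 bulk libraries are B7hi with HDM (n = 3), B7hi with saline (n = 2), B7low with HDM (n = 3) and B7low with saline (n = 2). The title of the series speaks of mast cells as inducible or constitutive, terms that elsewhere refer to high or low surface integrin β7. The labels do not say how many mice a library holds or whether libraries come from separate mice, so the p-values rest on the spread from library to library, part of which may be technical.

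Chemokines are small secreted proteins that direct the movement of leukocytes through G protein-coupled receptors. Mast cells release them when activated and so draw other cells into tissue. The monocyte chemoattractants CCL2 and CCL7 act on CCR2, and CCL7 also on CCR1 and CCR3. CCL3 and CCL4 are macrophage inflammatory proteins, of which CCL3 acts on CCR1, as do the mouse proteins CCL6 and CCL9. CCL1 is the ligand of CCR8, CXCL2 recruits neutrophils through CXCR2, CXCL10 is an interferon-inducible ligand of CXCR3, and XCL1 attracts dendritic cells that bear XCR1.

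In GENCODE M21 on GRCm38, 7 of the 10 genes lie on chromosome 11. Ccl2 (chr11:82035571-82037453, plus strand) and Ccl7 (chr11:82045712-82047525, plus strand) start 10.1 kb apart, and Ccl1 (chr11:82176657-82179812, minus strand, principal transcript) lies 129.1 kb further on. A gap of 1393.1 kb separates Ccl1 from Ccl9 (chr11:83572919-83578636, minus strand). Ccl6 (chr11:83587882-83593087, minus strand), Ccl3 (chr11:83647844-83649355, minus strand) and Ccl4 (chr11:83662584-83664683, plus strand) follow, with Ccl4 starting 1627.0 kb from Ccl2. Cxcl2 (chr5:90903873-90905938, plus strand) and Cxcl10 (chr5:92346638-92348882, minus strand) lie on chromosome 5, and Xcl1 (chr1:164931644-164935527, minus strand) on chromosome 1.

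RefSeq promoter windows were at hand for 7 of the 10 members, Ccl1, Ccl3, Ccl6, Ccl9, Cxcl2, Cxcl10 and Xcl1. The 250 bases before the annotated start are shown for Ccl3 and Ccl9, which lie on the same side of the gap, and for Cxcl10, which was higher in B7hi. They are given 5′ to 3′ on the gene's own strand, which is minus for all 3, from GRCm38.p6 at chr11:83649379-83649628 (Ccl3), chr11:83578637-83578886 (Ccl9) and chr5:92348890-92349139 (Cxcl10). Capitals mark matches, on either strand, to the NF-κB consensus, the AP-1 site TGANTCA, the interferon response element (GAAA, any 2 bases and GAAA) or the TATA box TATAAA.
Ccl3: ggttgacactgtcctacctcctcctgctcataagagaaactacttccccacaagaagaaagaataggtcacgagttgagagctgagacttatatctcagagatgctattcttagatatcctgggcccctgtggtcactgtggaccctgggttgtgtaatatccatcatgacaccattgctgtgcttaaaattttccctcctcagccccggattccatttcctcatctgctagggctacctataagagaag
Ccl9: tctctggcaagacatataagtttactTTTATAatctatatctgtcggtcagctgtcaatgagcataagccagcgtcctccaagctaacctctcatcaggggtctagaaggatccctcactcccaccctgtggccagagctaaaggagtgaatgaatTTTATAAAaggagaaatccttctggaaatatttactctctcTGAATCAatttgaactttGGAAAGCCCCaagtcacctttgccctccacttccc
Cxcl10: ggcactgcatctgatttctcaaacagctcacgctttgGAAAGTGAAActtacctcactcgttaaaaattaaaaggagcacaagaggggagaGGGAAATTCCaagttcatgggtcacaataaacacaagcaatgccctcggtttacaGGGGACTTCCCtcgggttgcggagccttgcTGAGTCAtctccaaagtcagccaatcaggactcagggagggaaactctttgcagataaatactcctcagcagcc
The Ccl3 window held no match to the 4 motifs. The Ccl9 window held an AP-1 match at -53 to -47 from the start, an NF-κB match on the opposite strand at -35 to -26, and TATA box matches at -92 to -87 and, on the opposite strand, at -94 to -89 and -224 to -219. The Cxcl10 window held an interferon response element match at -213 to -204, NF-κB matches at -159 to -150 and at the overlapping positions -104 to -95 and -103 to -94, and an AP-1 match at -74 to -68. Over all 32851 RefSeq windows of 300 bases, 8.46% held the NF-κB consensus, 7.81% the AP-1 site, 3.44% the interferon response element and 13.6% the TATA box. No matches of different motifs overlapped in these 7 windows, and a match is a run of letters, not a measured binding site.

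Total counts ran from 525983 (B7hi HDM 2) to 1725818 (B7hi saline 2) per library. Levels are in CPM, counts per 1000000 of the library size scaled by trimmed mean of M-values (TMM), and a count of 0 allows up to 1.57 CPM in the deepest library and 5.87 CPM in the shallowest, for counting error only. B7hi HDM 2 and B7low saline 2 stood apart through the noncoding RNA Kcnq1ot1, at 12133 and 6956 CPM, while it ranged from 806 to 2794 CPM elsewhere. The ribosomal RNA gene Rn45s took 19.7 and 21.6% of the counts in B7hi with saline, from 1222409 and 1725818 counts, against 27.2 and 28.9% in B7low with saline, from 652736 and 639906 counts. With HDM it took 22.7 to 26.3% in B7hi and 21.9 to 24.9% in B7low, and the part of depth and RNA quality in the saline differences was not tested. Markers of mast cells, 12 genes such as Kit and Cpa3, summed to 22624 to 35195 CPM in B7hi with HDM, 17227 to 21057 CPM in B7hi with saline, 58089 to 82038 CPM in B7low with HDM and 64202 to 111445 CPM in B7low with saline. The highest gene was Cma1 in each B7low library, at 16088 to 34315 CPM, and Cpa3 in each B7hi library. Against B7low, 4 of the 12 were lower in B7hi with HDM, 6 with saline and 8 over both challenges, and 0 were higher (edgeR adjusted p under 0.05). Of all genes, 2.15, 3.64 and 6.08% were lower in these comparisons. Over all libraries Kit ranged from 2693 to 5642 CPM, Mcpt4 from 90.3 to 12288 CPM and Tpsab1 from 7.56 to 2418 CPM. The share of mast cells was not measured. Of 15 macrophage and monocyte markers with a row in the table, C1qa, C1qb and Fcgr1 had no read in any library, and the list summed to at most 38.0 CPM in any library. Because these are bulk samples, fewer cells that make a transcript and less of it per cell cannot be told apart.

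The 2 populations carried chemokine transcripts of different make-up. Per kilobase of principal transcript, which allows genes to be compared, Ccl4 stood highest of the 10 in B7hi, at 2475 ± 1054 CPM per kb with HDM and 3026 ± 503 CPM per kb with saline (SD, n = 3 and 2). Ccl2 stood highest by mean in B7low, at 1662 ± 651.5 CPM per kb with HDM and 2089 ± 1119 CPM per kb with saline (SD, n = 3 and 2), although with HDM Ccl4 was within that spread, at 1629 ± 879.6 CPM per kb. Ccl3 was next after Ccl4 in B7hi, at 916 ± 666 CPM per kb with HDM and 583 ± 81.2 CPM per kb with saline.

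Ccl2 and Ccl7 together made up 17.9, 5.78 and 9.98% of the 10 genes' summed CPM per kb in the B7hi HDM libraries, against 48.7, 68.4 and 36.2% in the B7low HDM libraries. With saline they made up 1.39 and 4.23% in B7hi and 85.5 and 67.2% in B7low. Every B7hi library was therefore below every B7low library. Ccl3, Ccl4 and Ccl9 together made up 77.9, 92.8 and 84.4% in the B7hi HDM libraries, against 45.9, 26.1 and 62.6% in the B7low HDM libraries. With saline these 3 genes made up 97.9 and 94.6% in B7hi, against 13.7 and 28.5% in B7low. The ratio of Ccl4 to Ccl2 counts, which needs no scaling between libraries, was 4.11, 11.8 and 8.10 in the B7hi HDM libraries and 47.6 and 18.7 in the B7hi saline libraries. In B7low it was 0.853, 0.338 and 1.41 with HDM and 0.167 and 0.344 with saline, so the populations did not overlap. Ccl4 and Ccl2 are also the genes called higher and lower with saline in these same data, so this separation adds no independent support. The shares rest largely on the same genes and are likewise descriptive. The sets summed for them leave out Ccl1 and Ccl6, which also lie on chromosome 11. The summed level of the 10 genes overlapped between the populations, at 1529 to 4791 CPM in B7hi and 1945 to 6467 CPM in B7low.

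**Figure D1:**
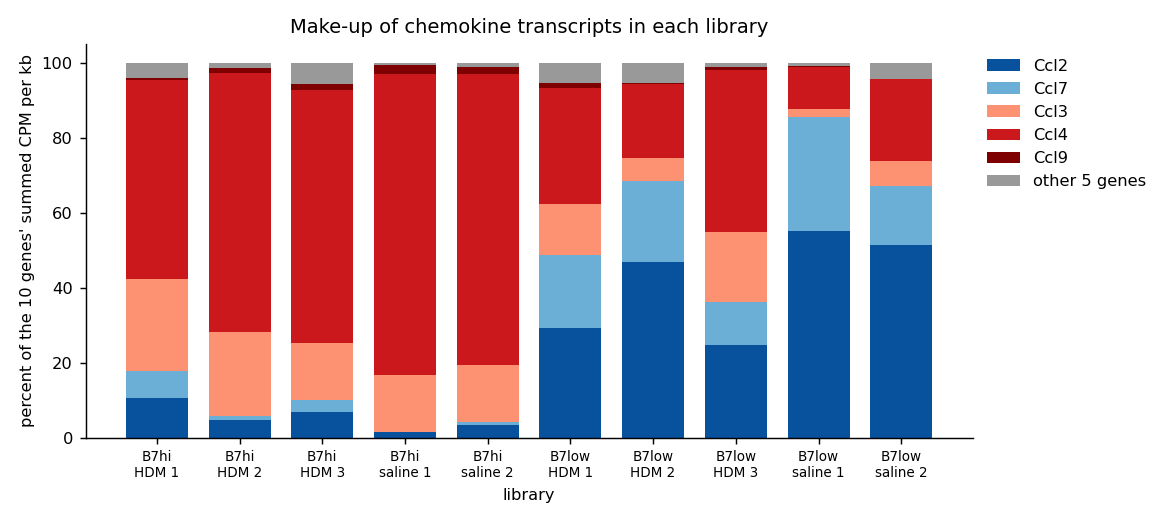
Share of each gene in the summed CPM per kb of the 10 chemokine genes, in percent (vertical axis), for each of the 10 libraries (1 stacked bar each; the other 5 genes are Ccl1, Ccl6, Cxcl2, Cxcl10 and Xcl1). Ccl2 and Ccl7 (blue) take at most 17.9% in a B7hi library and at least 36.2% in a B7low library.

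The comparison of B7hi with B7low asks how the chemokine output of the populations differs. Among the 8 chemokine genes that passed edgeR's filter on low counts, 0 passed with HDM in edgeR's quasi-likelihood test (Benjamini-Hochberg adjusted p under 0.05, over 10533 genes, all 4 groups in 1 fit), where 2.84% of all genes did (0.693% higher and 2.15% lower) and 1433 genes had an unadjusted p under 0.05. DESeq2 called Ccl2 and Ccl6 there. With saline, 2 of the 8 passed, Ccl4 (higher) and Ccl2 (lower), where 6.54% of all genes did (2.91% higher and 3.64% lower). As the average over both challenges, Ccl4 and Cxcl10 were higher and Ccl2 was lower in B7hi, which is 3 of 8 where 11.9% of all genes passed (5.8% higher and 6.08% lower). Cxcl2 and Xcl1 did not pass the filter and are given as counts. Cxcl10 passed the filter through B7hi libraries alone and Ccl6 through B7low libraries alone, so their calls and ranges are descriptive. The median log2 fold change of the 8 members was −0.08 with HDM, 0.09 with saline and 0.38 over both, beside 0.03 over all genes tested in each. By ranges of CPM, 3 of the 8 members did not overlap between populations with HDM (1 higher and 2 lower), where 20.5% of all genes did not overlap (9.76% higher and 10.7% lower). With saline, 7 of the 8 did not overlap (4 higher and 3 lower) against 51.9% of all genes (28.5% higher and 23.4% lower). Over all 10 libraries, Cxcl10 was higher and Ccl2 and Ccl6 were lower in every B7hi library than in every B7low library, where 9.4% of all genes were separated in this way (4.46% higher and 4.94% lower).

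**Figure D2:**
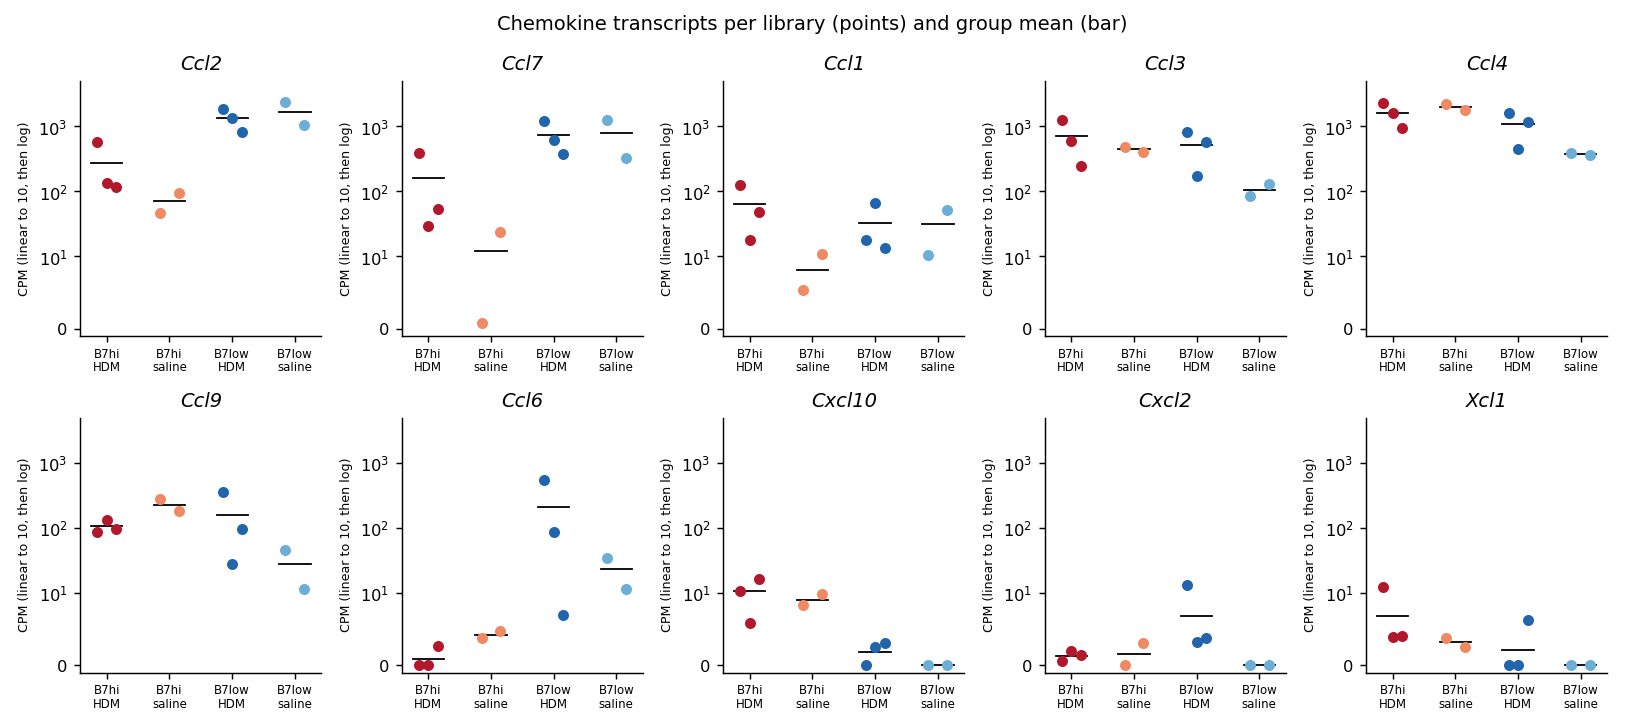
Transcript level of each chemokine gene in CPM (vertical axis, linear to 10 and logarithmic above), with 1 point per library and a bar at the mean of each group. Ccl2 lies between 46.9 and 568 CPM in B7hi and between 823 and 2341 CPM in B7low, while Ccl4 with saline lies at 1763 CPM or more in B7hi and 389.9 CPM or less in B7low.

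Ccl2 was the chemokine gene with the clearest lower level in B7hi. With HDM it was at 568, 137 and 116 CPM in B7hi and at 1883, 1347 and 823 CPM in B7low. With saline it was at 46.9 and 94.5 CPM in B7hi and at 2341 and 1055 CPM in B7low. The highest B7hi library, HDM 1, was below the lowest B7low library, HDM 3. The log2 fold change was −4.57 ± 0.95 with saline (SE, edgeR adjusted p = 0.029), −2.29 ± 0.70 with HDM (adjusted p = 0.17) and −3.43 ± 0.59 over both challenges (adjusted p = 0.0080, and 0.053 without B7hi saline 1). Leaving out B7hi saline 1 ended the saline call (adjusted p = 0.19), as did leaving out B7hi saline 2, B7low saline 1, B7low HDM 2 or the count filter. With HDM, Ccl2 passed without B7hi HDM 1 (adjusted p = 0.0015), and over the alternatives tried its adjusted p ran from 0.0015 to 0.41.

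Ccl7 had the same order of groups by mean with a wider spread. With HDM it was at 398, 29.4 and 54.1 CPM in B7hi and at 1225, 609 and 372 CPM in B7low. With saline it was at 0.756 CPM, which is 1 read, and 23.5 CPM in B7hi, and at 1278 and 323 CPM in B7low. The saline groups did not overlap, and the HDM groups overlapped through B7hi HDM 1 and B7low HDM 3. Its log2 fold change of −4.04 ± 1.10 over both challenges missed the threshold (edgeR adjusted p = 0.068), as did −5.93 ± 1.84 with saline (0.13) and −2.15 ± 1.22 with HDM (0.54). DESeq2 called it with saline (adjusted p = 0.0028) and over both challenges, and the fit of the saline groups alone called it with saline. B7hi HDM 1 was the highest B7hi library for Ccl1, Ccl2, Ccl3, Ccl4 and Ccl7 alike, and without it Ccl7 passed over both challenges (adjusted p = 0.023). Across the 10 libraries, log2 CPM of Ccl2 and Ccl7 had a Pearson r of 0.96, over points that share the same populations and scaling.

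Ccl1, the third gene on that side of the gap, did not follow the other two. It was at 126, 17.6 and 47.9 CPM in B7hi with HDM, at 5.29 and 10.96 CPM in B7hi with saline, at 17.6, 67.0 and 13.3 CPM in B7low with HDM and at 10.5 and 51.8 CPM in B7low with saline. The populations overlapped under both challenges, with log2 fold changes of 0.99 ± 0.81 with HDM (edgeR adjusted p = 0.68) and −1.89 ± 1.17 with saline (0.39). Its Pearson r with Ccl2 across the 10 libraries was 0.31.

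Ccl4 was the chemokine gene that was higher in B7hi at high counts. With saline it was at 2232 and 1763 CPM in B7hi and at 389.9 and 363 CPM in B7low, groups that lay far apart. With HDM it was at 2335, 1623 and 943 CPM in B7hi and at 1606, 455 and 1163 CPM in B7low, which overlapped. The log2 fold change was 2.41 ± 0.52 with saline (edgeR adjusted p = 0.016), 0.61 ± 0.40 with HDM (0.58) and 1.51 ± 0.33 over both challenges (0.0096). Leaving out B7hi saline 1, B7low saline 1 or B7low saline 2 ended the saline call (adjusted p up to 0.13), as did limma-voom or leaving out both B7low saline 2 and B7hi HDM 2. The call over both challenges ended without B7low saline 1, without B7low saline 2, without both libraries that stood apart, and with limma-voom.

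Ccl3 had the same order of groups with saline, at 490.5 and 402.5 CPM in B7hi and 83.9 and 129 CPM in B7low. With HDM it was at 1253, 607 and 246 CPM in B7hi and at 821, 170.4 and 581 CPM in B7low. The saline groups did not overlap and the HDM groups did, and neither difference passed, at log2 fold changes of 2.07 ± 0.89 with saline (edgeR adjusted p = 0.24) and 0.43 ± 0.68 with HDM (0.85). There were 1.86 to 3.84 Ccl4 reads for each Ccl3 read in B7hi with HDM and 4.38 to 4.55 in B7hi with saline, against 1.96 to 2.67 in B7low with HDM and 2.82 to 4.65 in B7low with saline. Their Pearson r across the 10 libraries was 0.91.

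Ccl9 was at 88.1, 133 and 97.3 CPM in B7hi with HDM and at 356, 28.0 and 97.9 CPM in B7low with HDM. With saline it was at 279.6 and 181 CPM in B7hi and at 45.5 and 11.7 CPM in B7low. The B7low HDM libraries spread on both sides of the B7hi HDM libraries, and the saline groups did not overlap. The log2 fold change was −0.58 ± 0.84 with HDM (edgeR adjusted p = 0.84) and 3.01 ± 1.19 with saline (0.20). Its Pearson r across the 10 libraries was 0.85 with Ccl4 and 0.70 with Ccl3.

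Ccl6, which lies 9.2 kb from Ccl9, was nearly absent from B7hi and uneven in B7low. B7hi libraries held 0, 0 and 4 reads with HDM and 5 and 9 reads with saline, at most 4.70 CPM. B7low libraries were at 544, 85.9 and 6.95 CPM with HDM and at 35.0 and 11.7 CPM with saline. All 5 B7low libraries were above all 5 B7hi libraries, yet the spread within B7low was large and no difference passed (edgeR adjusted p = 0.16 with HDM, 0.59 with saline and 0.11 over both). DESeq2 called it over both challenges too, and edgeR called it with HDM without B7low HDM 1 (adjusted p = 0.010) or B7low HDM 3. The 6 B cell markers summed to 591, 387 and 77.1 CPM in the same B7low HDM libraries, with Cd79a at 149, 68.9 and 8.85 CPM. They summed to 3.75 to 21.9 CPM in B7hi with HDM, 9.82 to 66.8 CPM in B7hi with saline and 19.2 to 33.4 CPM in B7low with saline, and no B cell marker was at 0 in every library. The 15 macrophage and monocyte markers summed to 2.05 to 27.4 CPM in B7hi with HDM, 12.8 to 13.6 CPM in B7hi with saline, 22.1 to 38.0 CPM in B7low with HDM and 8.74 to 21.7 CPM in B7low with saline. The part of either cell type in the level of Ccl6 was not tested.

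Cxcl10 was low in every library and higher in B7hi. It was at 10.6, 5.87 and 16.4 CPM in B7hi with HDM, from 17, 3 and 24 reads, and at 0, 2.60 and 3.16 CPM in B7low with HDM, from 0, 4 and 5 reads. With saline it was at 8.31 and 9.92 CPM in B7hi and had no read in either B7low library. The ratio is 3.61 with 3 counts over the B7low group as the floor and no counting error for B7hi. Every B7hi library was above every B7low library, although 5.87 CPM is 3 reads in B7hi HDM 2. The mean was 10.2 CPM for B7hi, against 1.15 CPM for B7low, over 5 libraries each, and the difference over both challenges passed (edgeR adjusted p = 0.018). Cxcl10 passed the count filter only through B7hi, where it is high, so this call is descriptive. That call was lost without B7hi HDM 3 (adjusted p = 0.062), B7hi saline 1 or B7hi saline 2, and the comparisons within HDM (0.24) and within saline (0.082) did not pass. By sequence, 4.84% of the 25-base words of Cxcl10 exons occur in another gene, chiefly Art3, so reads of that length could have been shared.

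The ligands Xcl1 and Cxcl2 had few reads. Xcl1 had 20, 2 and 6 reads in the B7hi HDM libraries and 0, 0 and 10 in the B7low HDM libraries. The B7hi saline libraries had 5 reads each and the B7low saline libraries none, a ratio of 1.20 with the same floor and no counting error for B7hi. In edgeR without the count filter this difference did not pass (adjusted p = 0.36). Cxcl2 had 1, 1 and 2 reads in the B7hi HDM libraries, 10, 5 and 6 in the B7low HDM libraries, 0 and 6 in the B7hi saline libraries and none in the B7low saline libraries. In CPM the B7low HDM libraries were at 13.6, 3.25 and 3.79, and a count of 0 allows up to 5.25 and 5.02 CPM in the B7low saline libraries, so the libraries of these groups cannot be put in order one by one at this depth. By sequence, 15.2% of the 25-base words of Xcl1 occur in another gene model, and 8.72% of those of Cxcl2 occur in Cxcl3, which itself had 1 read in all.

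**Figure D3:**
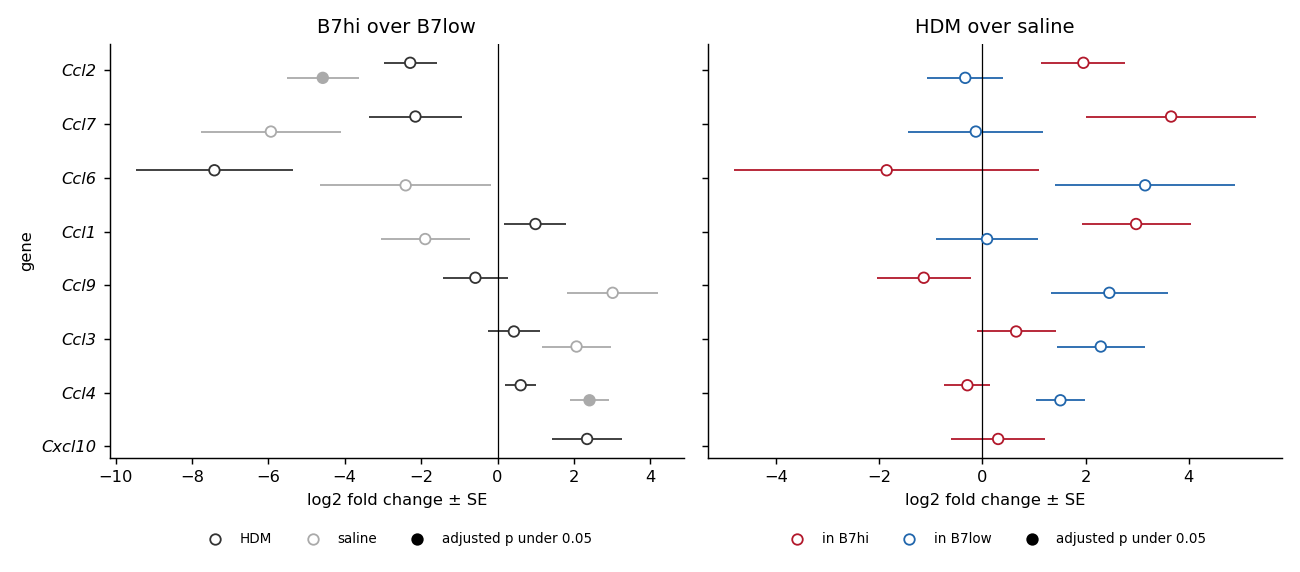
Log2 fold change of the 8 chemokine genes tested, with approximate SE as bars, for B7hi over B7low (left, by challenge) and for HDM over saline (right, by population). Filled points passed an edgeR adjusted p of 0.05, which with saline are Ccl2 at −4.57 and Ccl4 at 2.41, and Cxcl10 is not drawn where it is compared with B7low saline, which had no read.

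The comparison of HDM with saline asks what aeroallergen does within each population. In B7hi, 0 of the 8 chemokine genes tested passed in edgeR, where 0.00949% of all genes did and 435 had an unadjusted p under 0.05. In B7low, 0 of 8 passed, where 0.00949% of all genes did and 956 had an unadjusted p under 0.05. The median log2 fold change of the 8 members was 0.48 in B7hi and 1.90 in B7low, beside 0.02 and 0.03 over all genes tested. By ranges, 5 of the 8 did not overlap in B7hi (Ccl1, Ccl2 and Ccl7 higher and Ccl6 and Ccl9 lower with HDM, although for Ccl6 0 reads in B7hi HDM 2 allow up to 5.87 CPM, above its saline levels), where 20.6% of all genes did not (10.2% higher and 10.4% lower), and 2 of the 8 did not overlap in B7low (Ccl3 and Ccl4, both higher), where 23.9% of all genes did not (13.2% higher and 10.7% lower).

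In B7hi the largest positive values belonged to the genes on the Ccl2 side of the chromosome 11 gap. The log2 fold changes were 2.98 ± 1.06 for Ccl1, 1.96 ± 0.81 for Ccl2 and 3.66 ± 1.65 for Ccl7, each with an edgeR adjusted p of 0.999. With 1 library left out they ran from 2.04 to 3.62 for Ccl1, 0.82 to 2.56 for Ccl2 and 1.74 to 7.57 for Ccl7. DESeq2 called Ccl1 there (adjusted p = 0.049), within a range of 0.049 to 1 over the alternatives tried. The values for Ccl4 (−0.29 ± 0.45), Ccl9 (−1.13 ± 0.91) and Ccl3 (0.66 ± 0.77) had errors close to or above their size. Ccl6 was at −1.85 ± 2.96 in B7hi. In B7low the chromosome 11 genes on the other side of the gap had the larger values, at 1.51 ± 0.48 for Ccl4 (adjusted p = 0.39), 2.29 ± 0.86 for Ccl3 (0.50), 2.46 ± 1.13 for Ccl9 (0.58) and 3.15 ± 1.74 for Ccl6 (0.64). Ccl2 (−0.33 ± 0.73), Ccl7 (−0.13 ± 1.30) and Ccl1 (0.09 ± 0.99) lay near 0 in B7low. Cxcl2 had 21 reads in B7low with HDM and 0 with saline, a ratio of 2.12 with the same floor for saline and no counting error for HDM. In edgeR without the count filter this difference did not pass (adjusted p = 0.49).

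The difference of the HDM effect between the populations was tested as an interaction, B7hi minus B7low, and 0 of the 8 members passed in edgeR, where 0% of all genes did and 901 had an unadjusted p under 0.05. The members with the smallest p were Ccl4, at −1.80 ± 0.64 (log2, adjusted p = 0.49), and Ccl9, at −3.59 ± 1.45 (0.56). The values for Ccl1 (2.89 ± 1.42), Ccl2 (2.29 ± 1.08) and Ccl7 (3.78 ± 2.04) had the opposite sign and did not pass (adjusted p = 0.65, 0.63 and 0.69). Without the count filter, Ccl4 passed in B7low (adjusted p = 2.2e-04) and in the interaction (0.0012), and over all alternatives its adjusted p ran from 2.2e-04 to 0.95 and from 0.0012 to 0.92.

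**Figure D4:**
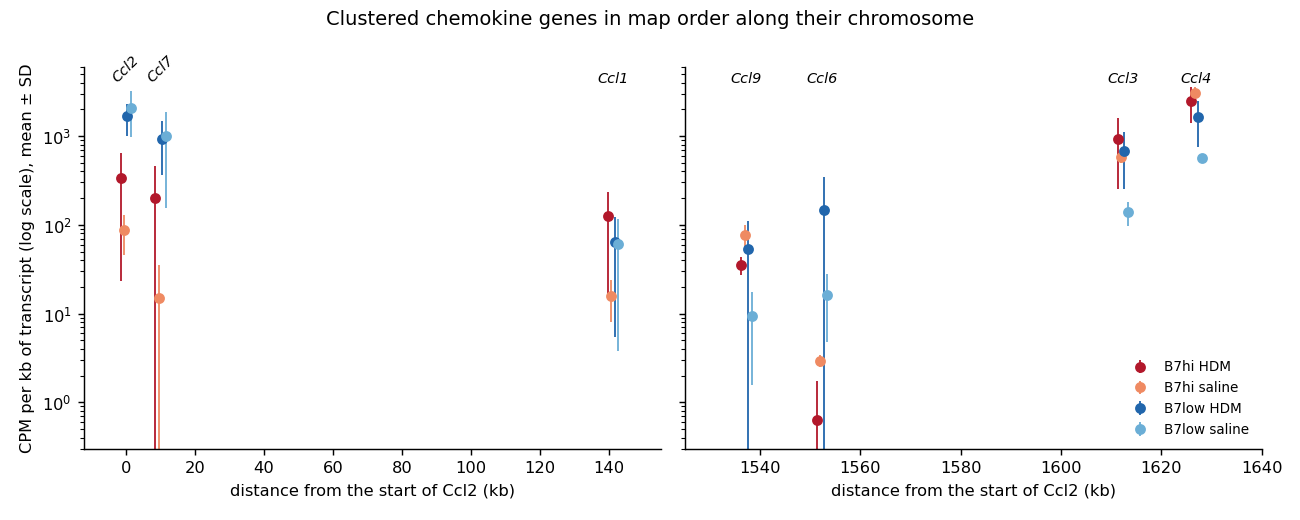
Mean CPM per kb of principal transcript ± SD (logarithmic axis, n = 3 with HDM and 2 with saline) of the 7 chromosome 11 chemokine genes against distance from the start of Ccl2 in kb, with the 1393.1 kb gap left out between the panels. Points are spread sideways for clarity and SD bars that reach 0 run to the lower edge. Ccl2 and Ccl7 have their higher means in B7low and Ccl4 in B7hi.

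Receptors for these ligands were measured in the same cells. Of 24 chemokine receptor genes, 23 had reads and 13 were tested, and the highest by mean over the libraries were Cx3cr1 (478 CPM), Ccrl2 (317 CPM), Ccr1 (55.5 CPM) and Cxcr4 (31.9 CPM). The order was not the same in every group, since Ccr7 averaged 89.5 CPM in B7low with HDM and Cxcr2 averaged 33.8 CPM in B7low with saline, where Ccr1 averaged 29.8 and 9.24 CPM. Against B7low, 1 was lower in B7hi with HDM, 1 was higher and 1 lower with saline, and 1 was higher and 1 lower over both challenges. Of all genes, 2.84, 6.54 and 11.9% passed in these comparisons, and the receptor count over both is near the background. None of the 13 passed for HDM against saline in either population or in the interaction.

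Ccr1, the receptor of CCL3, CCL6, CCL7 and CCL9, was at 145 and 109 CPM in B7hi with saline and at 1.75 and 16.7 CPM in B7low with saline. With HDM it was at 68.8, 74.4 and 50.0 CPM in B7hi and at 54.2, 18.9 and 16.4 CPM in B7low. The saline groups lay apart and the HDM groups overlapped through B7low HDM 1. The log2 fold change was 3.75 ± 0.69 with saline (edgeR adjusted p = 0.0046) and 2.46 ± 0.42 over both (0.0014), and both calls held without any 1 library.

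Ccrl2, an atypical receptor that binds chemerin, was at 304, 206 and 248 CPM in B7hi with HDM and at 492, 394 and 351 CPM in B7low with HDM. With saline it was at 108 and 228 CPM in B7hi and at 441 and 398 CPM in B7low. Every B7hi library was below every B7low library, and the log2 fold change was −1.01 ± 0.22 over both challenges (edgeR adjusted p = 0.0055) and −1.32 ± 0.34 with saline (0.027). The saline call ended without B7hi saline 1, B7low saline 1 or B7low saline 2 (adjusted p up to 0.25), without both libraries that stood apart, by library size alone and in a fit of the saline groups alone.

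Cxcr5, a receptor of B cells and follicular T cells, was at 0, 0 and 2.74 CPM in B7hi with HDM and at 67.8, 31.2 and 4.42 CPM in B7low with HDM. Its log2 fold change was −4.81 ± 1.11 (edgeR adjusted p = 0.030), and the call was lost without B7low HDM 1, B7low HDM 2, B7hi HDM 1, B7hi HDM 2 or B7low saline 1, with limma-voom, the replicate block and the fit of the HDM groups alone, and without both libraries that stood apart. Cxcr5 passed the count filter only through B7low with HDM, where it is high, so this call is descriptive. Its 3 B7low HDM libraries followed the order of the B cell markers given with Ccl6, whose part in this result was not tested. Ccr8, the receptor of CCL1, averaged 44.7 ± 14.4 CPM in B7hi with HDM and 16.8 ± 3.35 CPM in B7low with HDM (SD, n = 3 each), and did not pass (edgeR adjusted p = 0.12). Xcr1, the receptor of XCL1, had 13 reads in all libraries together.

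**Figure D5:**
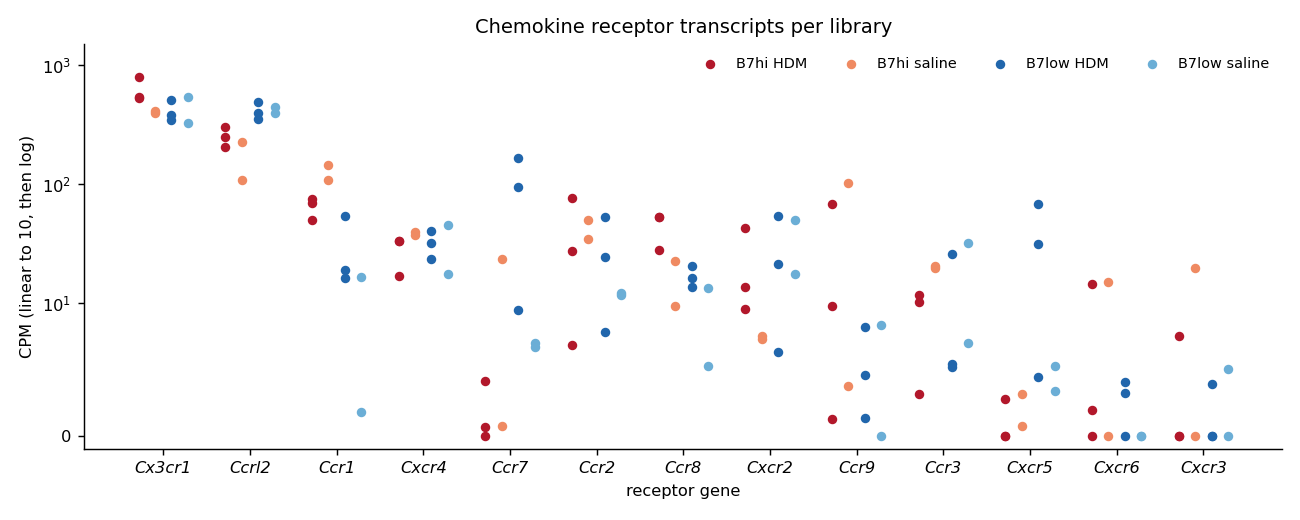
Level of the 13 chemokine receptor genes tested, in CPM (vertical axis, linear to 10 and logarithmic above), with 1 point per library in the order of the 4 groups within each gene. Ccr1 with saline lies at 109 CPM or more in B7hi and 16.7 CPM or less in B7low, and Ccrl2 is lower in every B7hi library than in every B7low library.

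The other chemokine genes of the mouse had few reads, with Ccl5 in B7hi the highest. Of 28 further ligand genes, 24 had reads, 3 (Ccl5, Ccl28 and Cxcl12) were tested and 0 passed in any comparison. By mean level over all libraries the highest were Ccl5 (9.39 CPM), Cxcl12 (3.67 CPM), Cxcl16 (3.39 CPM) and Cxcl5 (2.80 CPM). Ccl5 had reads in B7hi only, at means of 17.2 CPM with HDM and 21.1 CPM with saline. Most of them were in B7hi HDM 3 and B7hi saline 2, at 46.6 and 40.7 CPM. In B7low the highest group means were 8.62 CPM for Cxcl12 with HDM and 6.69 CPM for Cxcl16 with saline. The 4 overall means were all below the overall means of Ccl1, Ccl2, Ccl3, Ccl4, Ccl6, Ccl7 and Ccl9. In B7hi with saline, however, the mean of Ccl5 was above those of Ccl1 and Ccl6 (8.13 and 4.24 CPM). Ccl8, which lies in the same family as Ccl2 and Ccl7, had 3 reads in all libraries together and Ccl12 had none.

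Many chemokine genes are known targets of NF-κB, AP-1 or interferon-induced factors, and many of their mRNAs are short-lived. Of 20 genes of the NF-κB pathway, all tested, 0 passed for B7hi against B7low with HDM and 1 with saline (Ikbkb, higher), where 2.84 and 6.54% of all genes did, and the saline call was lost in 13 of 19 alternatives. Over both challenges the kinase gene Ikbkb was higher in B7hi (0.88 ± 0.18 log2, edgeR adjusted p = 0.0048) and Tnfaip3, which encodes the inhibitor A20, was lower (−0.96 ± 0.23, 0.012), where 11.9% of all genes passed. Both calls ended without B7hi saline 1, and that of Tnfaip3 also without B7low saline 1. Of 12 regulators of mRNA decay, 0 passed with HDM, 1 was lower in B7hi with saline and 2 were lower over both, where 3.64 and 6.08% of all genes were lower. These were Zfp36, which encodes tristetraprolin (−1.37 ± 0.27 over both, adjusted p = 0.0038), and Zfp36l1 (−0.99 ± 0.25, 0.018), whose call ended without B7hi saline 1, B7hi saline 2 or B7low saline 1.

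Genes of the immediate early response that passed were lower in B7hi. Of 19 tested genes of the AP-1, EGR and NFAT families, 0 were higher in B7hi, 2 were lower with HDM, 5 with saline and 6 over both challenges, where 2.15, 3.64 and 6.08% of all genes were lower. With HDM the mean of Jun was 1662 ± 281 CPM for B7hi, against 4860 ± 1105 CPM for B7low (SD, n = 3 each), and its log2 fold change was −1.55 ± 0.29 (edgeR adjusted p = 0.0076). That of Fos was 1055 ± 181 CPM for B7hi, against 3958 ± 494 CPM for B7low, and the log2 fold change was −1.91 ± 0.41 (adjusted p = 0.025). With saline the mean of Jun was 995 ± 469 CPM for B7hi, against 6727 ± 2103 CPM for B7low (SD, n = 2 each), and its log2 fold change was −2.76 ± 0.38 (edgeR adjusted p = 3.6e-04). Fos, Junb, Egr1 and Nr4a2 were also lower in B7hi with saline. The saline calls for Jun and Fos held in all 19 alternatives. Those for Junb, Egr1 and Nr4a2 ended without B7hi saline 1 or without B7low saline 1 (edgeR adjusted p up to 0.27, 0.25 and 0.19). The fit of the saline groups alone did not call Junb or Egr1 either. The HDM calls were lost without B7hi HDM 3 or B7low HDM 1 for Jun, and without any 1 of the 6 HDM libraries for Fos, which limma-voom and the replicate block did not call either.

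Of 17 tested interferon-related genes, B7hi had 0 higher and 2 lower with HDM, 1 higher and 0 lower with saline, and 3 higher and 4 lower over both. Of all genes, 2.84, 6.54 and 11.9% passed in these comparisons (0.693, 2.91 and 5.8% higher and 2.15, 3.64 and 6.08% lower), so the saline count is near the background. Over both challenges Irf1, Gbp3 and Rsad2 were higher, and Irf5 (log2 −1.70, edgeR adjusted p = 0.014), Irf8, Stat2 and Usp18 were lower. Of 18 alternatives, 17 called Irf5, 11 Gbp3, 11 Irf8, 9 Rsad2, 8 Irf1, 6 Usp18 and 4 Stat2. Irf1, a transcription factor that can drive Cxcl10, averaged 249 ± 128 CPM for B7hi with saline, against 65.1 ± 6.89 CPM for B7low with saline (SD, n = 2 each). Its log2 fold change was 1.94 ± 0.53 (edgeR adjusted p = 0.047), a call lost in 10 of 19 alternatives. The dendritic and B cell factor Irf8 averaged 0.417 ± 0.722 CPM for B7hi with HDM, against 22.2 ± 9.91 CPM for B7low with HDM (SD, n = 3 each; edgeR adjusted p = 0.033), a call lost in 6 of 19 alternatives, among them leaving out any 1 HDM library but B7low HDM 3. The 8 dendritic cell markers summed to 201, 110 and 23.4 CPM in the B7low HDM libraries, where the B cell markers were at the sums given with Ccl6. Ccr7 alone was at 165, 93.7 and 9.48 CPM in these libraries, the highest gene of the list in each. The list summed to 27.4 to 29.4 CPM in B7hi with HDM, 10.6 to 36.5 CPM in B7hi with saline and 8.74 to 40.1 CPM in B7low with saline. No dendritic marker was at 0 in every library, and the part of dendritic or B cells in the level of Irf8 was not tested.

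Among 12 tested cytokine genes, 0 passed between populations with HDM, and Il6 and Areg were higher in B7hi with saline and over both, which is 2 of 12 where 2.91 and 5.8% of all genes were higher. With saline the call for Areg was lost in 9 of 19 alternatives (adjusted p up to 0.30) and that for Il6 without B7hi saline 1, B7hi saline 2 or B7low saline 1, and over both the call for Areg was lost with limma-voom and without B7hi saline 2. Il6 was also the 1 gene of the whole table that passed for HDM against saline in B7low, at 299.8 ± 134 CPM with HDM and 56.2 ± 12.7 CPM with saline (SD, n = 3 and 2; log2 fold change 2.40 ± 0.36, adjusted p = 0.041), a call lost in 12 of 19 alternatives. None of these lists held a gene that passed for HDM against saline in B7hi or in the interaction.

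Patterns across libraries set the chemokine genes beside other genes. Over 10 libraries, among 6068 genes with at least 20 CPM on average, the log2 CPM most like that of Ccl2 by Pearson r belonged to Mlph (0.99), the mast cell tryptase gene Tpsb2 (0.99) and Tulp4 (0.98). Those most like Ccl7 were the tryptase gene Tpsab1 (0.99), Dhrs3 (0.98) and Ccrl2 (0.98). Ccl3 was most like Ccl4 (0.91), Kiz (0.89) and Pnpla7 (0.89), and Ccl4 most like Aldh2 (0.94), Ak3 (0.94) and Styx (0.93). Ccl9 was most like Ercc4 (0.94), P2ry10 (0.92) and Wdr4 (0.92), Ccl1 most like Mxd1 (0.91), Uhrf1bp1l (0.91) and Car8 (0.90), and Ccl6 most like the B cell gene Cd79a (0.91), Tmem2 (0.90) and Itgb1 (0.90). For Cxcl10 they were Ap2m1 (0.98), Cct2 (0.98) and Mrpl33 (0.97). These values describe 10 points that share populations, challenges and scaling, and carry no test.

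Markers of other cells are given for the populations between which Ccl4 and Cxcl10 differed. The 14 markers of T, NK and innate lymphoid cells summed to 212 to 835 CPM in B7hi with HDM, 582 to 797 CPM in B7hi with saline, 75.9 to 249 CPM in B7low with HDM and 64.7 to 191 CPM in B7low with saline, with Nkg7 the highest in B7hi saline 1 at 521 CPM. The sums overlapped with HDM and did not overlap with saline. None of the 9 markers tested passed between populations in edgeR, and no marker of the list was at 0 in every library. The log2 fold change was positive for 7 of the 9 with HDM (median 2.01) and for 8 with saline (median 2.59). Nkg7 was at 521 and 448 CPM in B7hi with saline and at 36.7 and 124 CPM in B7low with saline. With HDM it was at 139, 245 and 353 CPM in B7hi and at 33.9, 89.1 and 224 CPM in B7low. The T cell genes Cd3d, Cd3e and Cd3g summed to 4.38, 3.91 and 46.6 CPM in the B7hi HDM libraries, where Ccl4 was at 2335, 1623 and 943 CPM. In the B7hi saline libraries they summed to 1.51 and 67.9 CPM, where Ccl4 was at 2232 and 1763 CPM. In B7low they summed to 1.36 to 6.99 CPM. Prf1, like Nkg7, was highest in B7hi saline 1, at 50.6 CPM. The basophil gene Mcpt8 was at 821 to 1552 CPM in B7hi with HDM, 691 to 837 CPM in B7hi with saline, 82.7 to 383 CPM in B7low with HDM and 57.7 to 189 CPM in B7low with saline, while the 6 basophil markers together summed to 2446 to 3812 CPM in B7hi and 2089 to 3002 CPM in B7low, which overlapped. Over both challenges Mcpt8 and Ifitm1 were higher in B7hi and Prss34 and Cd200r3 were lower, and within HDM and within saline Prss34 and Cd200r3 alone passed, both lower. The part of these cells in the chemokine levels was not tested.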

How the data were processed

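The authors deposited raw counts, whole numbers per gene symbol, for 10 SmartSeq2 libraries (amplified cDNA, paired reads of 25 nt, per the labels' protocols). Tools listed in the submitters' processing notes are TopHat2 2.0.10, Cufflinks 2.2.1 and, with no version, DESeq2, and the build is mm10. How reads were counted, on which annotation and whether by strand is not given in the sources used here, so reads from overlapping or antisense genes cannot be told apart.

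After TMM scaling, the counts were tested in edgeR 4.0.16 (under R 4.3.3; quasi-likelihood, robust, filterByExpr, 1 mean per group), two-sided, with Benjamini-Hochberg adjustment over the 10533 genes tested and a threshold of 0.05. The common biological coefficient of variation was 0.359. The SE is approximate (absolute log2 fold change divided by the root of F). Total counts ran from 525983 to 1725818, and limits for a count of 0 cover counting error only, because PCR copies were not told apart by molecular identifiers. Replicate pairs differed by more than sampling noise (chi-square per degree of freedom 6.54 to 11.0).

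All 10 members were described, and 1 receptor is not reported here. Of each other list, up to 4 genes with the smallest p among those called between populations could be named. Any called for HDM and the 4 highest ligands and receptors could be named too. Ccr8, Xcr1, Ccl8, Ccl12 and Cxcl3 were named after their values were seen, as were all interferon-related genes called over both challenges. The members and lists were chosen with earlier results of these data known. Log2 CPM for correlations used a prior count of 2. Gene models came from GENCODE M21 and promoters from RefSeq. Alternatives were DESeq2 1.42.0, limma-voom (limma 3.58.1), other scaling and filters, a replicate block, fits of 2 groups, and each library left out, with the set of genes tested kept in the last (the fits of 2 groups gave p-values for 10524 to 10533 of them). Scripts were tested on simulated data.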

Additional observations from a re-analysis of the deposited data

How the results depend on the processing

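The number of chemokine genes called, out of 8, changed with the processing as follows. For B7hi against B7low with HDM (0) it was 2 with DESeq2 (Ccl2 and Ccl6), 1 with the replicate block (Ccl2) and 0 to 1 with 1 library left out. With saline (2) it was 3 with DESeq2 (Ccl7 added), 1 with limma-voom (Ccl2), 1 without the count filter (Ccl4), 1 without both B7low saline 2 and B7hi HDM 2, an alternative chosen after seeing the data (Ccl2), 5 with only the 2 groups in the fit (Ccl2, Ccl3, Ccl4, Ccl7 and Ccl9) and 0 to 3 with 1 library left out, 0 being without B7hi saline 1 or B7low saline 1. Over both challenges (3) it was 5 with DESeq2 (Ccl2, Ccl4, Ccl6, Ccl7 and Cxcl10), 2 with limma-voom and 2 without both libraries (Ccl4 lost in each), and 1 to 5 with 1 library left out, lowest without B7hi saline 1 and highest without B7low HDM 1. For HDM against saline it was 1 in B7hi with DESeq2 (Ccl1) and 1 in B7low without the count filter (Ccl4), and for the interaction 1 without the filter (Ccl4), against 0 in each with any 1 library left out. The cause was not tested.

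No member changed direction while called. Uncalled log2 fold changes turned sign in 9 cases, as given here with the range over 1 library left out. Ccl1 over both challenges was 0.53 without both libraries, and −0.92 to 0.34. In B7low, HDM against saline was −1.07 to 1.66 for Ccl1. For Ccl2 it was 0.087 with the replicate block, and −0.79 to 0.36. For Ccl7 it was 0.021 by library size alone, 0.19 with limma-voom and 0.45 with the replicate block, and −0.80 to 1.18. In B7hi it was −0.081 to 1.08 for Ccl3, −0.64 to 0.011 for Ccl4, and −0.054 with the replicate block and −0.078 to 0.56 for Cxcl10. B7hi against B7low with HDM was −0.31 to 0.90 for Ccl3, and 0.058 with limma-voom and −1.10 to 0.73 for Ccl9.

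The labels do not say whether the replicate numbers pair the samples. Deviations from the group mean correlated at −0.11 to 0.04 between same-numbered B7hi and B7low libraries and at −0.12 to 0.20 between others. With 2 or 3 libraries a group, such deviations are tied to each other, so these values cannot decide whether libraries are paired. Library size alone moved the median log2 fold change of all genes to 0.30 for B7hi against B7low with saline, with 655 genes called higher and 310 lower against 306 and 383 with TMM. Depth limits Cxcl2, Cxcl10 and Xcl1, at no more than 24 reads in a library.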

Other observations

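Ccl5, a T and NK cell chemokine, had reads in B7hi only, mostly in 2 libraries. It had 5, 1 and 68 reads in B7hi with HDM, 2 and 78 reads in B7hi with saline, and 0 reads in all 5 B7low libraries, and did not pass between populations (edgeR adjusted p = 0.31 with HDM, 0.33 with saline and 0.10 over both). The libraries with 68 and 78 reads, B7hi HDM 3 and B7hi saline 2, also held the highest summed CPM of Cd3d, Cd3e and Cd3g, at 46.6 and 67.9 CPM, where the rest held 1.36 to 6.99 CPM. Gzma was at 361 and 211 CPM in them and at 72.4 CPM or less in the others, and Cxcr3 had its highest reads there, 11 and 38. Of the other T, NK and innate lymphoid markers, Cd8a, Cd8b1, Klrb1c and Klrd1 were highest in B7hi HDM 3. The rest peaked elsewhere: Nkg7 and Prf1 in B7hi saline 1, at 521 and 50.6 CPM, and Cd2, Cd4, Ncr1 and Eomes in B7low HDM libraries. Ccl3 was at 246 and 402.5 CPM in these libraries and at 1253, 607 and 490.5 CPM in the other B7hi libraries, and Ccl4 at 943 and 1763 CPM against 2335, 1623 and 2232 CPM. The part of T or NK cells in these values was not tested.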
